A study of Mus musculus with 6 samples.

Results

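The genes described here are 8 genes of cholesterol synthesis, Hmgcs1, Mvd, Idi1, Fdps, Fdft1, Sqle, Insig1 and Srebf2. They were chosen by symbol, and all 8 were found among the 34245 genes of the expression table. Of the 8, 6 encode enzymes of the pathway and 2, Srebf2 and Insig1, encode regulators of it. None of them encodes a protein of cholesterol uptake, so uptake was read from a separate gene list.

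The study examined how loss of an allele of the DNA methyltransferase gene Dnmt3b in the mouse germline bears on T-cell lymphoma. RNA-seq was performed on 3 Dnmt3b+/- peripheral T-cell lymphomas (PTCL), taken as independent samples from the lymph nodes of terminally sick mice of the FVB/N strain. The loss of the allele was in the germline, and no age is given in the labels. Whole-genome bisulfite sequencing of 2 Dnmt3b+/- PTCL and 1 Dnmt3a-/- PTCL was not analysed here. The tumors are all of the same genotype, so nothing was tested and every comparison describes single tumors. RNA came from whole tumor tissue, so each value is a sum over lymphoma cells and the other cells of the node.

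Cholesterol is built from acetyl-CoA through the mevalonate pathway, whose early enzymes make isoprenoids and whose later enzymes turn squalene into sterols. Transcription of these enzymes is driven by SREBP2, the product of Srebf2, which is held in the endoplasmic reticulum by INSIG proteins when sterols are plentiful and is released and cleaved when they are scarce. Activated T cells are known to raise this program as they grow and divide, since new membrane needs sterols.

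Expression was given as FPKM, the fragments on a gene per kilobase of its exons and relative to the depth of the library. Library depth, recovered from the value given to genes with no read, was 30726570, 18969988 and 20770928 reads for tumors 1, 2 and 3. Dnmt3b itself had 0.975, 1.55 and 1.25 FPKM in tumors 1, 2 and 3, a mean of 1.26 ± 0.287 (SD, n = 3). These values cover all exons of the gene and do not separate the intact from the mutant allele. The most abundant of 11 T-cell markers were high in every tumor. Cd8b1 and Cd8a, the chains of the CD8 co-receptor, had 434.7, 166.0 and 443.4 FPKM and 258.5, 121.8 and 218.1 FPKM in tumors 1, 2 and 3, and Lck, the kinase bound to it, had 159.6, 207.8 and 207.2. Cd4, in the same list, had 28.4, 4.28 and 8.22 FPKM.

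All 8 cholesterol synthesis genes had their lowest value in tumor 3. Among the 11191 genes with a mean of at least 1 FPKM, 37.4% were lowest in that tumor. Tumor 1 was lowest for 24.3% of all genes and tumor 2 for 38.3%, and neither was lowest for any of the 8. In bulk tissue, fewer cells of a type and less RNA per cell cannot be told apart, so these values do not say which of them differed between the tumors. The highest value lay in tumor 1 for 4 of the genes, Mvd, Idi1, Fdft1 and Sqle, and in tumor 2 for the other 4, Hmgcs1, Fdps, Insig1 and Srebf2. Over all genes, the share with the highest value in tumors 1, 2 and 3 was 50.6%, 33.7% and 15.7%. All 8 genes passed the filter of 1 FPKM by their mean, and Sqle was below it in tumor 3.

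**Figure D1:**
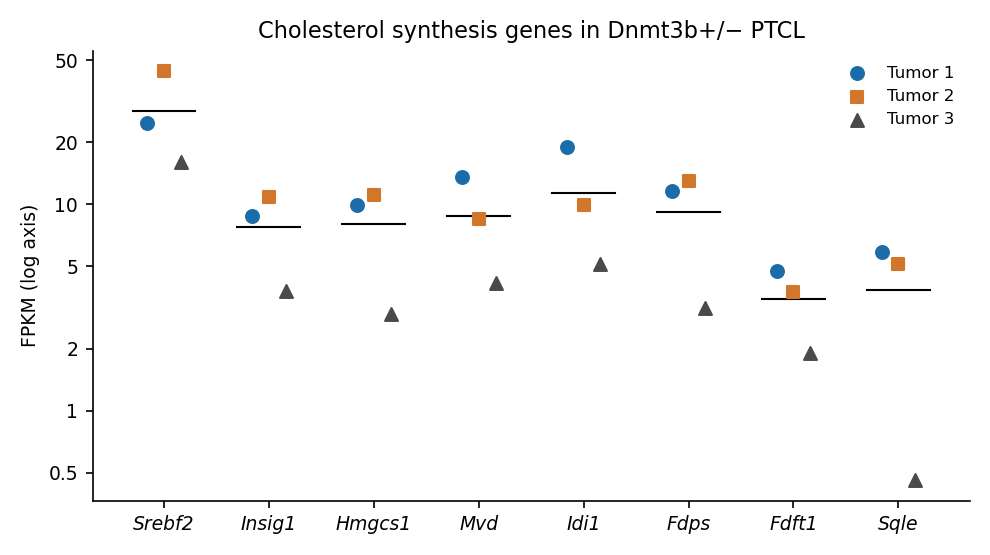
FPKM of the 8 genes on a log axis, with a point for each tumor and a line at the mean of the 3 tumors. The triangle of tumor 3 is the lowest point of every gene, from 16.0 FPKM for Srebf2 to 0.460 FPKM for Sqle.

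Srebf2 (ENSMUSG00000022463), the gene of the transcription factor, spans 82147266 to 82205376 of chromosome 15 (mm10). Its expression in tumors 1, 2 and 3 was 24.9, 44.2 and 16.0 FPKM, a mean of 28.4 ± 14.4 (SD, n = 3). It was the most abundant of the 8 genes in each tumor and exceeded 90.5% of all genes with a mean of at least 1 FPKM. Tumor 3 held 0.644 times the level of tumor 1, with a 95% exact interval of 0.608 to 0.683, the ratio nearest to 1 among the 8 genes for this comparison. Against tumor 2 the ratio was 0.363 (0.343 to 0.384). These intervals, like all intervals given here, come from the recovered reads of each library and cover counting error only, not the variation between animals.

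Insig1 (ENSMUSG00000045294), on chromosome 5 from 28071363 to 28078662, encodes a protein that retains the SREBP complex in the endoplasmic reticulum and is itself a target of SREBP2. Its values were 8.83, 10.8 and 3.78 FPKM in tumors 1, 2 and 3, a mean of 7.81 ± 3.63 (SD, n = 3). Tumor 3 held 0.428 times the level of tumor 1 (0.370 to 0.495) and 0.349 times that of tumor 2 (0.300 to 0.406).

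The early part of the pathway was represented by Hmgcs1, Mvd and Idi1. Hmgcs1 (ENSMUSG00000093930; chromosome 13, 119690379 to 119708260) encodes the cytosolic enzyme that makes HMG-CoA, and had 9.93, 11.2 and 2.94 FPKM in tumors 1, 2 and 3. Mvd (ENSMUSG00000006517; chromosome 8, 122433601 to 122443422) encodes mevalonate diphosphate decarboxylase, which makes isopentenyl diphosphate, and had 13.6, 8.45 and 4.14 FPKM in tumors 1, 2 and 3. Idi1 (ENSMUSG00000058258; chromosome 13, 8885501 to 8892451) encodes the isomerase of that product, and had 18.9, 9.90 and 5.15 FPKM. The low value of tumor 3 was common to these 3 genes, while the order of the other tumors was not. For Hmgcs1 tumor 2 was slightly above tumor 1, whereas tumor 1 held 1.61 times the Mvd (1.41 to 1.85) and 1.91 times the Idi1 (1.75 to 2.09) of tumor 2. The means were 8.01 ± 4.43 FPKM for Hmgcs1, 8.74 ± 4.74 for Mvd and 11.3 ± 7.0 for Idi1 (SD, n = 3).

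The enzymes that join isoprenoids to squalene and open the sterol branch were Fdps, Fdft1 and Sqle. Fdps (ENSMUSG00000059743; chromosome 3, 89093588 to 89101959), farnesyl diphosphate synthase, had 11.6, 13.0 and 3.16 FPKM in tumors 1, 2 and 3. Fdft1 (ENSMUSG00000021273; chromosome 14, 63145150 to 63179578), squalene synthase, had 4.74, 3.77 and 1.91 FPKM in tumors 1, 2 and 3. Tumor 3 held 0.273 times the Fdps (0.239 to 0.311) and 0.403 times the Fdft1 (0.338 to 0.479) of tumor 1. The Fdft1 value carries a limit, since 774 of its exon bases, 18.3% of them, are shared with Ctsb on the opposite strand, whose FPKM was 57.5, 45.9 and 18.3 in the 3 tumors. Strand use in the counting is not given in the sources used here, so reads of this overlap cannot be assigned. Fdps likewise shares 26.7% of its exon bases with the annotated gene Gm43738 on the same strand, which had 22.4, 29.7 and 13.3 FPKM. Smaller overlaps with genes on the opposite strand covered 12.1% of the exon bases of Hmgcs1 and 9.22% of those of Idi1. The overlapping genes were named after their values were seen.

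Sqle (ENSMUSG00000022351; chromosome 15, 59315077 to 59331192) encodes squalene epoxidase, a rate-limiting enzyme of the sterol branch. It showed the widest difference between tumors of the 8 genes. Tumors 1 and 2 had 5.90 and 5.14 FPKM, from 1005 and 541 reads, and tumor 3 had 0.460 FPKM from 53 reads. The level of tumor 3 was thus 0.0780 times that of tumor 1 (0.0580 to 0.103) and 0.0895 times that of tumor 2 (0.0662 to 0.119), while tumors 1 and 2 differed by 1.15-fold (1.03 to 1.28). The mean was 3.83 ± 2.95 FPKM (SD, n = 3). Without tumor 3 the highest level of Sqle was no more than 1.15 times the lowest.

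Across the 8 genes, the highest tumor was at least 2 times the lowest for all 8, against 34.4% of the genes with a mean of at least 1 FPKM. The ratios ran from 2.48 for Fdft1 to 12.8 for Sqle, with a median of 3.48, and the median over all genes was 1.68. Tumor 3 decided this count, since none of the 8 genes reached a 2-fold difference between tumors 1 and 2. The share of all genes that reached it between these 2 tumors was not computed. Tumor 3 was at most 0.5 times tumor 1 for 7 of the 8 genes, against 13.3% of all genes, with Srebf2 as the exception. It was at most 0.5 times tumor 2 for 6 of the 8, against 11.3%, with Idi1 at 0.520 and Fdft1 at 0.508 just above that level. Both conditions were met by 5 genes, Hmgcs1, Mvd, Fdps, Sqle and Insig1, against 5.25% of all genes. Equal FPKM sums gave 7 genes for this last count and median-of-ratios factors gave 3, against 6.54% and 4.49% of all genes. This count was chosen after the values were seen.

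The median over the 8 genes of the log2 ratio of tumor 3 to tumor 1 was -1.74, and that of tumor 3 to tumor 2 was -1.49. Over all genes with a mean of at least 1 FPKM the same medians were -0.24 and -0.06, so that the 8 genes stood at -1.50 and -1.43 relative to them. Between tumors 1 and 2 the median over the 8 genes was 0.02 and that over all genes 0.18. This small value came from genes on both sides, as the ratio of tumor 1 to tumor 2 ran from 0.563 for Srebf2 to 1.91 for Idi1, and its sign turned with median-of-ratios factors, which gave -0.16. For all 8 genes the interval of each of the 3 ratios excluded 1. The share of all genes with such intervals was not computed and the intervals cover counting error only, so this does not set the 8 genes apart.

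**Figure D2:**
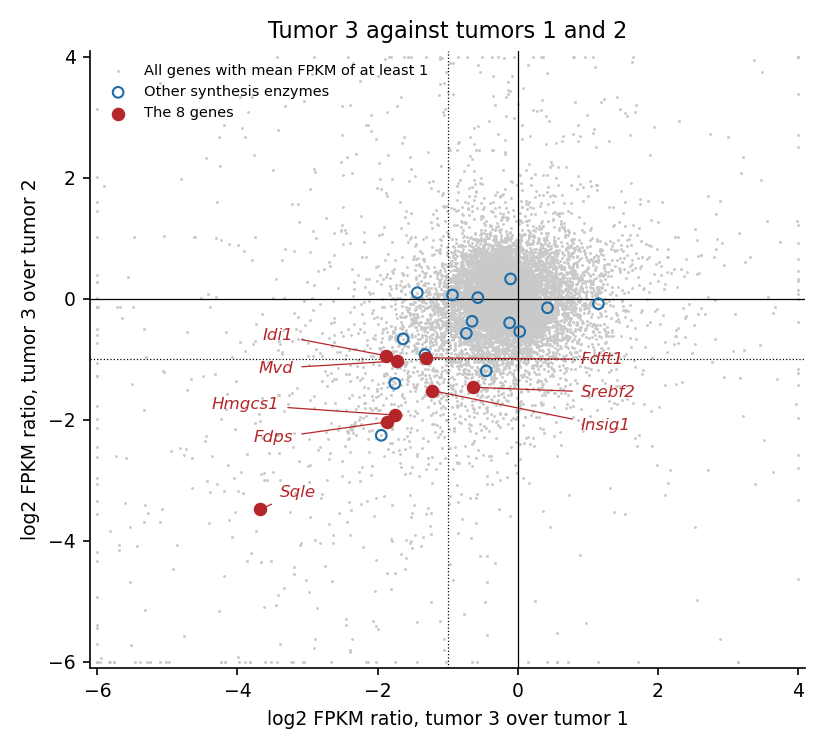
Log2 ratio of FPKM of tumor 3 to tumor 1 (horizontal) against that of tumor 3 to tumor 2 (vertical), with gray points for the 11191 genes with a mean of at least 1 FPKM, open circles for the other synthesis enzymes and filled circles for the 8 genes. Dotted lines mark a ratio of 0.5, points beyond the axes are drawn at the edge, and all 8 genes lie below 0 on both axes; both axes share tumor 3, so they are not independent.

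Ordered by mean FPKM, which is scaled to exon length, the 8 genes ran from Srebf2 through Idi1, Fdps, Mvd, Hmgcs1 and Insig1 to Sqle and Fdft1. Srebf2 exceeded Idi1 in all 3 tumors, and by more than the larger SD of the 2 genes. Insig1 likewise exceeded Sqle in all 3 tumors. The 5 genes from Idi1 to Insig1, with means of 11.3 to 7.81 FPKM, did not differ from their neighbors beyond the spread between tumors, nor did Sqle and Fdft1. Their order changed between tumors, as Idi1 was above Fdps in tumors 1 and 3 and below it in tumor 2. Sqle was above Fdft1 in tumors 1 and 2 and below it in tumor 3. Of the FPKM summed over the 8 genes, Srebf2 made up 25.3%, 41.6% and 42.7% in tumors 1, 2 and 3, and Sqle 5.99%, 4.83% and 1.22%.

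Other enzymes of the pathway were taken as a list of 16 genes, of which all but Idi2, with 0 reads in tumors 1 and 2 and 3 in tumor 3, had a mean of at least 1 FPKM. Of these 15 enzymes, 8 had their lowest value in tumor 3, against 37.4% of all genes, and none its highest, against 15.7%. Tumor 1 was lowest for 3 and tumor 2 for 4. With equal FPKM sums 12 were lowest in tumor 3, against 50.5% of all genes, and with median-of-ratios factors 7, against 27.0%. Cyp51, the lanosterol demethylase, had 11.5, 14.2 and 2.98 FPKM in tumors 1, 2 and 3. Sc5d, the lathosterol desaturase, had 6.77, 5.30 and 2.01 FPKM. Tumor 3 was at most 0.5 times each other tumor for these 2 of the 15 enzymes and for no other of the list, against 5.25% of all genes.

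The rest of the list differed less or had their lowest value elsewhere. Acat2, which condenses acetyl-CoA at the entry of the pathway, had 6.26, 5.59 and 3.77 FPKM, and Lss, which closes the sterol rings, had 3.07, 2.33 and 1.23. Mvk had 2.80, 2.31 and 1.78 FPKM, Pmvk had 4.48, 7.51 and 3.29, and Msmo1 had 3.60, 1.84 and 1.16. Tm7sf2 was close to even, at 1.91, 2.33 and 1.77 FPKM. Acat1, Acat2, Mvk, Pmvk and Lss were counted as the listed enzymes up to lanosterol. Of these 5, 4 were lowest in tumor 3, Acat1 being the exception, against 37.4% of all genes. Of the 10 that act after lanosterol, 4 were, Cyp51, Tm7sf2, Msmo1 and Sc5d, which is near that share. Ebp, the sterol isomerase, had 16.0, 37.7 and 35.7 FPKM in tumors 1, 2 and 3, and Lbr, a sterol reductase that is also a receptor of the nuclear lamina, had 44.6, 29.7 and 30.1 FPKM. Nsdhl had 5.11, 7.61 and 6.87 FPKM, and Dhcr7 had 3.90, 5.79 and 3.98. Hsd17b7, Erg28 and Acat1 had their lowest value in tumor 2, at 1.19, 4.69 and 10.1 FPKM. The low level of tumor 3 was therefore found in part of the pathway and not in all of it. Over the 15 enzymes the median log2 ratio of tumor 3 was -0.65 to tumor 1 and -0.40 to tumor 2.

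**Figure D3:**
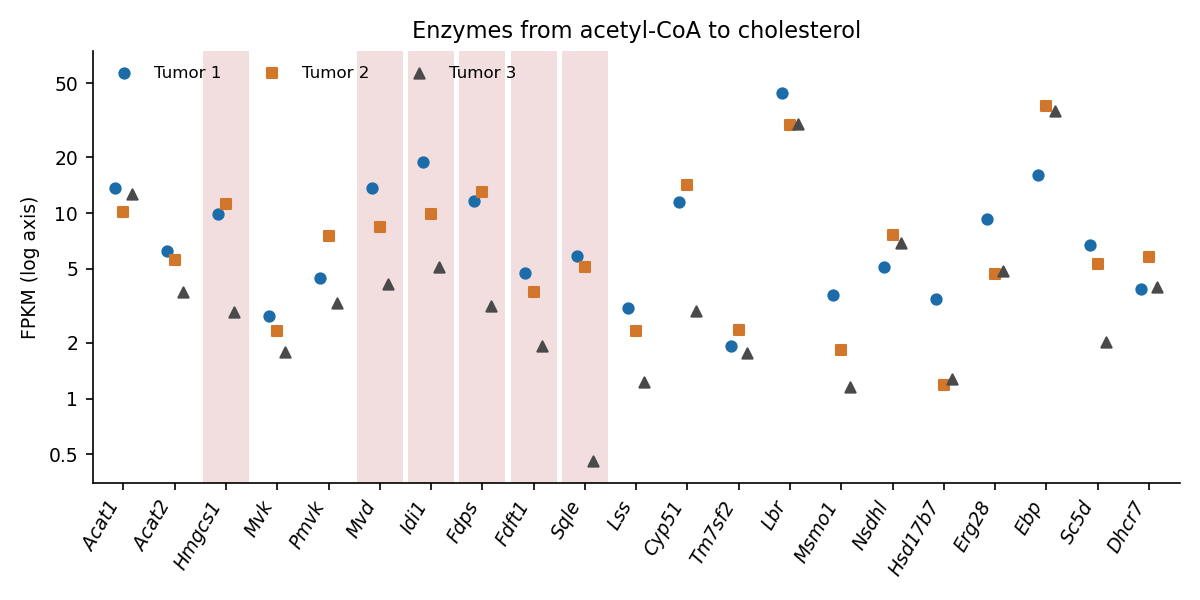
FPKM on a log axis of 21 enzymes ordered along the pathway from acetyl-CoA to cholesterol, with a point for each tumor and shading for the 6 enzymes among the 8 genes. Tumor 3 is the lowest point from Acat2 to Tm7sf2 but not for Acat1, and lies near another tumor for Lbr, Nsdhl, Hsd17b7, Erg28, Ebp and Dhcr7.

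The list of sterol sensing and SREBP processing held 10 genes, of which 9 were matched by symbol and Spring1 was not. Of these 9 genes, 2 reached a 2-fold difference, against 34.4% of all genes, and tumor 3 was at most 0.5 times each other tumor for none, against 5.25%, so neither count sets the list apart. Scap, the escort protein that carries SREBP to the Golgi, had 8.85, 8.99 and 6.81 FPKM in tumors 1, 2 and 3. The proteases that release SREBP, Mbtps1 and Mbtps2, had 8.26, 6.61 and 6.77 FPKM and 2.92, 2.91 and 3.57 FPKM. Insig2, the paralog of Insig1 that is not a strong SREBP target, had 4.21, 3.46 and 3.47 FPKM and thus lacked the difference seen for Insig1. The ligase gene Rnf139 had 9.52, 9.86 and 7.40 FPKM, and the scaffold genes Erlin1 and Erlin2 had 2.91, 1.87 and 1.84 FPKM and 4.14, 4.61 and 3.72 FPKM. The genes that reached 2-fold were Srebf1, the gene of SREBP1, with 12.5, 29.2 and 10.8 FPKM, and Hsd17b7, which is also an enzyme of the pathway and was counted in both lists. By lowest value, 5 of the 9 genes had tumor 3 as their lowest, with 8 under equal FPKM sums and 2 under median-of-ratios factors, against 37.4%, 50.5% and 27.0% of all genes, so no direction is given for this list.

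Uptake and intracellular transport were read from 17 genes, of which 13 had a mean of at least 1 FPKM. Of these 13 genes, 7 were lowest in tumor 3, against 37.4% of all genes. The count was 9 under equal FPKM sums, against 50.5%, and 7 under median-of-ratios factors, against 27.0%. Tumor 3 was at most 0.5 times each other tumor for none of the 13, against 5.25% of all genes. The filter on the mean had left out 3 receptors that met this condition, Lrp1, Lrp8 and Vldlr. Thus 3 of all 17 genes met it, against 7.04% of all genes without the filter. Genes with no read in any tumor cannot meet this condition. With a mean of at least 0.2 FPKM the share was 9.57%, and Vldlr was below that mean. Vldlr met the condition on few reads, with an interval to tumor 1 of 0 to 1.26. Over the 13 genes the median log2 ratio of tumor 3 was -0.49 to tumor 1 and -0.36 to tumor 2. Mylip, a ubiquitin ligase gene under the LXR receptors, was lowest in tumor 1, with 7.32 FPKM against 15.6 and 17.3. Of the receptors below the filter, Lrp1 had 1.52, 1.27 and 0.133 FPKM and Lrp8 1.05, 1.30 and 0.394, and Vldlr had 6, 17 and 0 reads.

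Scarb1, the HDL receptor, had 4.21, 2.93 and 1.98 FPKM in tumors 1, 2 and 3, and its relative Scarb2 had 13.3, 8.97 and 6.68. Cd36, a scavenger receptor, had 0.888, 1.64 and 0.738 FPKM, a 2.23-fold difference between tumors 2 and 3. The lysosomal proteins that export cholesterol, Npc1 and Npc2, had 1.97, 1.78 and 1.41 FPKM and 71.5, 105.7 and 79.5 FPKM. Lipa, the lysosomal acid lipase, was highest in tumor 1, with 27.9 FPKM against 7.97 and 9.18. Sterol carriers between membranes were at like levels in all tumors for Stard5, with 14.7, 15.3 and 18.0 FPKM, and for Gramd1a, with 34.7, 33.8 and 28.2. Stard4, a carrier known as an SREBP2 target, had 9.21, 6.48 and 4.74 FPKM. Gramd1b had 8.23, 8.31 and 5.85 FPKM, Stard3 had 5.40, 9.06 and 7.05, and Osbp had 11.1, 7.70 and 7.86. Gramd1c had between 24 and 41 reads in each tumor.

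Genes around the pathway were divided. Of 10 genes of cholesterol efflux, storage and the LXR receptors with a mean of at least 1 FPKM, 4 were lowest in tumor 3, near the 37.4% of all genes, and each of the 4 was at most 0.5 times both other tumors, against 5.25%. Over all 16 genes of the list, the low ones included, 9 were lowest in tumor 3 and 8 met the second condition, at least 3 of them with no read in tumor 3. Without the filter the shares of all genes were 24.4% and 7.04%, though genes with no read in any tumor cannot meet the conditions. With a mean of at least 0.2 FPKM these shares were 39.9% and 9.57%. Apoe, the most abundant of them and a carrier of cholesterol, had 101.8, 77.0 and 9.66 FPKM in tumors 1, 2 and 3, whereas Abcg1, a sterol exporter, had 10.7, 16.4 and 15.0 and Nr1h2, which encodes LXR beta, had 18.8, 26.8 and 19.8. Of 12 genes above the same filter that lead from farnesyl diphosphate to prenylated proteins, dolichol and ubiquinone, 2 were lowest in tumor 3, against 37.4% of all genes. Rabggtb, Nus1 and Coq2, the most abundant of these, had 26.4, 11.4 and 14.8 FPKM, 12.8, 6.12 and 10.2 FPKM, and 10.7, 10.7 and 7.12 FPKM. Of 10 fatty acid genes under SREBP1, 6 were lowest in tumor 3 and 7 were highest in tumor 2, against 37.4% and 33.7% of all genes. In this list 6 of 10 reached a 2-fold difference, against 34.4% of all genes, and 3 of 10 had tumor 3 at most 0.5 times each other tumor, against 5.25%. Elovl5 and Acly had 76.9, 26.8 and 27.5 FPKM and 33.7, 37.8 and 35.3 FPKM, and Scd2 had 15.3, 46.4 and 7.49. The median log2 ratio of tumor 3 to tumor 1 was -0.61 for the efflux list, -0.34 for the branches and -0.62 for the fatty acid genes, against -0.24 for all genes and -1.74 for the 8 genes. To tumor 2 it was -0.94, 0.27 and -0.57 for these lists, against -0.06 and -1.49. The efflux genes went both ways, so their median describes no single gene.

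RNA of proliferation genes and of markers of other cells also differed in tumor 3, and its part in the result was not tested. Of 14 proliferation genes, 13 were lowest in tumor 3, against 37.4% of all genes, and 13 were highest in tumor 1, against 50.6%, with medians of 23.7, 17.4 and 11.9 FPKM in tumors 1, 2 and 3. The most abundant of them, Pcna, had 88.0, 55.9 and 63.6 FPKM, Mcm3 had 36.2, 23.4 and 23.1, and Mcm6 had 32.9, 28.2 and 21.1. In this list 7 of 14 reached a 2-fold difference, against 34.4% of all genes. Tumor 3 was at most 0.5 times each other tumor for 2 of the 14, against 5.25%. The median log2 ratio of tumor 3 to tumor 1 was -1.01 for this list, between the -0.24 of all genes and the -1.74 of the 8 genes, and that to tumor 2 was -0.40, against -0.06 and -1.49. With median-of-ratios factors 10 of the 14 were lowest in tumor 3, against 27.0% of all genes, and with equal FPKM sums 13, against 50.5%. Of 10 housekeeping genes, 2 were lowest and 1 was highest in tumor 3, against 37.4% and 15.7% of all genes. Median-of-ratios factors turned these counts to 0 and 4, against 27.0% and 26.3% of all genes. The most abundant, Actb, Ppia and Pgk1, had 1114, 1434 and 1409 FPKM, 407.6, 308.4 and 369.6 FPKM, and 84.7, 169.4 and 139.2 FPKM in tumors 1, 2 and 3.

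Markers of macrophages summed to 331.8, 116.3 and 17.9 FPKM in tumors 1, 2 and 3. The 8 of 9 markers with a mean of at least 1 FPKM were all lowest in tumor 3, against 37.4% of all genes. The most abundant were Marco at 111.1, 2.44 and 1.60, C1qa at 74.5, 24.1 and 1.44 and C1qb at 64.4, 20.6 and 1.59, while 1 of the 9 listed markers, Cd163, was at or under 3 reads in tumor 3. Fibroblast markers summed to 11.8, 43.3 and 0.371 FPKM, with Col1a1 at 1.63, 15.5 and 0.315, Col3a1 at 1.86, 14.3 and 0.00490, and Col1a2 at 1.34, 7.40 and 0.0116, and 6 of the 7 were at or under 3 reads in tumor 3. Pancreatic acinar genes summed to 83.6, 430.2 and 0.653 FPKM, with Ctrb1 at 33.9, 197.7 and 0.0494, Prss2 at 14.9, 52.1 and 0.177, and Cela2a at 6.72, 50.7 and 0.196, and 6 of the 8 were at or under 3 reads in tumor 3.

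The remaining lists did not share 1 pattern. Erythroid genes summed to 202.4, 38.4 and 4.74 FPKM, led by Hba-a1 at 92.3, 19.6 and 1.90, Hba-a2 at 40.7, 8.22 and 0.0722, and Hbb-bs at 35.3, 6.93 and 1.25, and Hba-a2 was at or under 3 reads in tumor 3. Endothelial markers summed to 13.8, 13.3 and 5.16 FPKM, led by Pecam1 at 12.2, 10.9 and 4.86, Cdh5 at 0.805, 1.39 and 0.126, and Kdr at 0.483, 0.374 and 0.0960, with no marker at or under 3 reads. Adipocyte markers summed to 3.52, 22.0 and 1.63 FPKM, led by Cfd at 0.882, 14.5 and 0.0470, Lipe at 1.73, 1.58 and 1.39, and Fabp4 at 0.536, 2.22 and 0.0643, with 6 of the 8 at or under 3 reads in tumor 3. In these 3 lists, as in the macrophage, fibroblast and acinar lists, all genes with a mean of at least 1 FPKM were lowest in tumor 3, against 37.4% of all genes. These were only 1 of 5 endothelial and 2 of 8 adipocyte markers. Some genes passed by a high value in a single tumor, so no conclusion is drawn from this filtered count. Without the filter all markers of these lists were lowest in tumor 3 except 2 of the 8 adipocyte markers, against 24.4% of all genes. Genes with no read in any tumor count as lowest in tumor 1 and so lower that share. With a mean of at least 0.2 FPKM it was 39.9%. The 2 exceptions, Plin1 and Lep, had 1, 32 and 0 reads and 0, 1 and 0 reads in tumors 1, 2 and 3, so their lowest tumor is not resolved. B-cell markers went the other way, with sums of 63.8, 50.6 and 121.0 FPKM, Cd79a at 23.1, 7.31 and 49.0, and Cd79b at 20.1, 3.72 and 35.5. Of the 7, 6 were highest in tumor 3, against 15.7% of all genes, the exception being Cd22 at 5.84, 36.5 and 13.9. Plasma cell markers summed to 863.0, 199.5 and 217.9 FPKM, most of it from Jchain at 814.2, 185.1 and 178.6, followed by Xbp1 at 36.3, 11.1 and 11.3 and Mzb1 at 11.0, 2.62 and 25.8. Of the 3 plasma cell markers with a mean of at least 1 FPKM, 1 was highest in tumor 3, against 15.7% of all genes. Of all 5 markers 3 were, against 8.84% of all genes without the filter. Genes with no read in any tumor count as highest in tumor 2 and so lower this share. With a mean of at least 0.2 FPKM it was 15.0%. T-cell markers summed to 1480, 1282 and 1629 FPKM, and 1 of the 11 was lowest in tumor 3, against 37.4% of all genes. Which tumor led in T-cell markers turned with the scaling. Equal FPKM sums gave 1620, 1279 and 1503, with 3 of the 11 lowest in tumor 3, against 50.5% of all genes. Median-of-ratios factors gave 1340, 1310 and 1732, with 0 lowest in tumor 3, against 27.0%. All 7 hepatocyte markers were at or under 3 reads in every tumor, so none was detected.

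**Figure D4:**
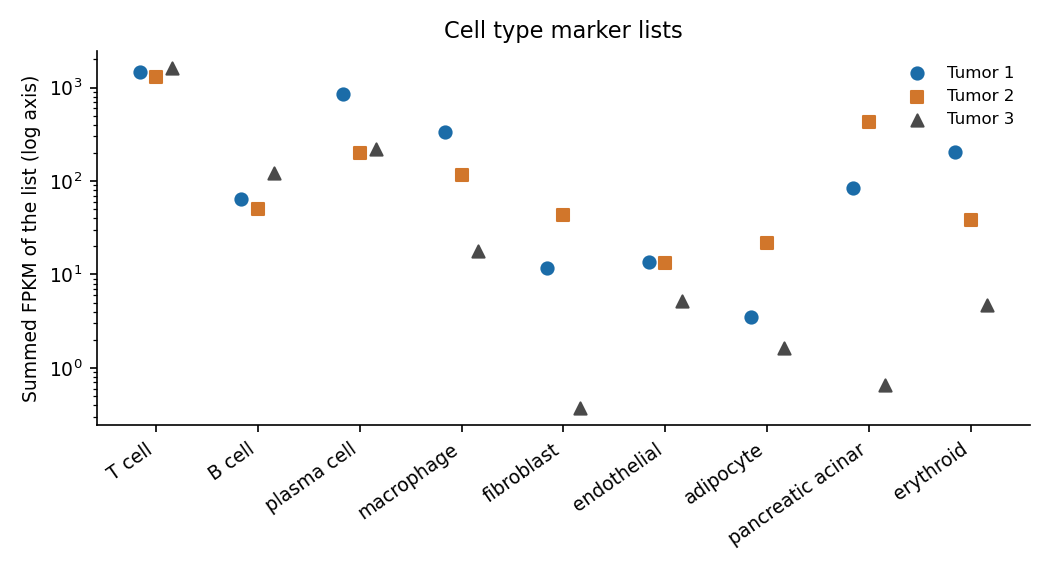
FPKM summed over each cell type marker list, on a log axis, with a point for each tumor; the hepatocyte list, without detectable reads, is left out. Tumor 3 is the lowest point for the macrophage, fibroblast, endothelial, adipocyte, pancreatic acinar and erythroid lists and the highest for the B-cell list and, on the FPKM scale shown, the T-cell list.

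The promoters of the genes were compared because the genes shared their lowest tumor. RefSeq sequences of GRCm38.p6, from 250 bases before to 50 bases after the start of transcription, were matched for 5 of the 8 genes, Hmgcs1, Mvd, Idi1, Insig1 and Srebf2, and not for Sqle, Fdps and Fdft1. They were searched on both strands for TCACNCCAC, a form of the sterol regulatory element bound by SREBP, for the CCAAT box bound by NF-Y, for the GC box GGGCGG bound by Sp1, and for the E-box CACGTG. No matches of different motifs overlapped. All 5 promoters held a CCAAT box, against 37.4% of the 32851 promoters of the mouse genome, and all 5 held a GC box, against 35.7%. Both motifs together were found in 12.8% of all promoters. These shares cover promoters of any GC content and of genes at any expression level. No share for promoters of like GC content or of expressed genes was computed. The sterol regulatory element was found only in Hmgcs1, from -137 to -129, and in 1.24% of all promoters, and the E-box only in Insig1, against 7.15%. A match is a description of the letters and not of a bound site, and other forms of these elements were not searched. The sequences are those of the promoter with the sterol motif (Hmgcs1), one with 2 CCAAT boxes within 50 bases before the start (Idi1) and the one with the E-box (Insig1), 5′ to 3′ on the strand of the gene, with the motifs in capitals.
Hmgcs1, chr13:119690101-119690400, plus strand: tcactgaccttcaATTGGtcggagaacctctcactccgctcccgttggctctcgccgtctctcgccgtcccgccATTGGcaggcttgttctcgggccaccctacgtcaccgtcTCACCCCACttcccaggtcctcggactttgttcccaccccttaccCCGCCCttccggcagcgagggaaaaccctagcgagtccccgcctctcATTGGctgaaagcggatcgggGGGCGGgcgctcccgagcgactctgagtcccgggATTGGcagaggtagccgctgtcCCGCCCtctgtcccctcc
Idi1, chr13:8885356-8885655, plus strand: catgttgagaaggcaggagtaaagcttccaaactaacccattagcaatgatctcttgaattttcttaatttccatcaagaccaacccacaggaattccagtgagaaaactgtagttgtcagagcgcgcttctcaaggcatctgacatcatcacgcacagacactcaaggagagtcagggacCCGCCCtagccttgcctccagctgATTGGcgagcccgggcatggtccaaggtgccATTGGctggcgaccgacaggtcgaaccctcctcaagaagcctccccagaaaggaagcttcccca
Insig1, chr5:28071162-28071461, plus strand: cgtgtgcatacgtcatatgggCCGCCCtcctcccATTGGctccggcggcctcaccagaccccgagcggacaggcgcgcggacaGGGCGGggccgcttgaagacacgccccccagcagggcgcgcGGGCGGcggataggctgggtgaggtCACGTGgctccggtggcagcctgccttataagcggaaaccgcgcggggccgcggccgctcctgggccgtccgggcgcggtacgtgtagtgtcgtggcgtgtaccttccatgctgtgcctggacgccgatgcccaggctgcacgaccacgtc
In Hmgcs1 the capitals mark the sterol motif, 4 CCAAT boxes, all read as ATTGG on the printed strand, and 3 GC boxes. In Idi1 they mark 2 CCAAT boxes, from -45 to -41 and from -14 to -10, and 1 GC box. In Insig1 they mark 1 CCAAT box, 3 GC boxes and the E-box from -101 to -96. Hmgcs1 and Idi1 thus share a CCAAT box at -45 to -41, and Mvd held 2, from -60 to -56 and from -27 to -23. Srebf2 held 1 CCAAT box and 5 GC boxes, the most of the 5 promoters. GC content was 52.3% in Idi1 and 62.3% to 71.7% in the other 4.

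**Figure D5:**
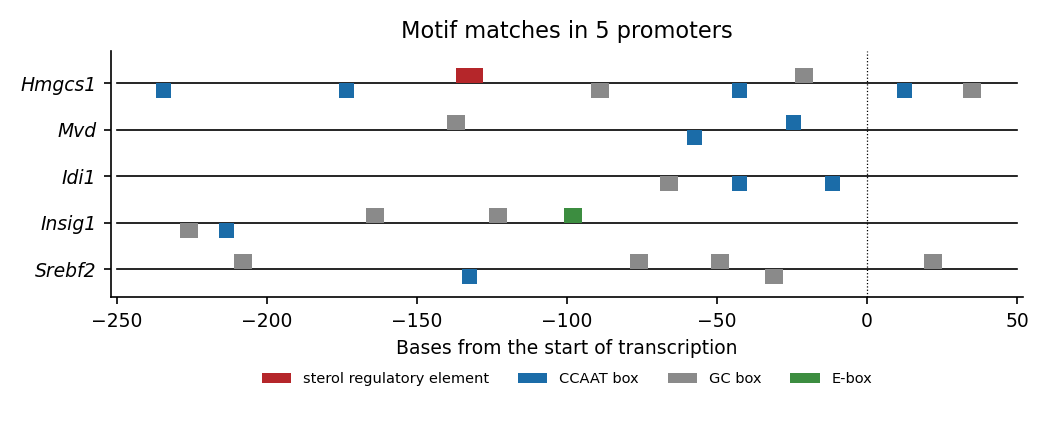
Positions of the motif matches in the 5 promoters, in bases from the start of transcription (dotted line), with matches on the strand of the gene above each line and those on the other strand below it. Each promoter carries at least 1 CCAAT box and 1 GC box, and Hmgcs1 carries the sterol regulatory element.

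Genes outside the lists with the most similar pattern were sought among 3361 genes with a mean of at least 10 FPKM, by the Euclidean distance between their centered log2 FPKM over the 3 tumors and the mean profile of the 8 genes. The 5 nearest were Gm5148, Adam19, Gm16033, Naaa and Gm17041, at distances of 0.0479 to 0.230. By the same measure the 8 genes themselves lay between 0.206 for Hmgcs1 and 1.53 for Sqle, and all 5 genes were nearer to the mean profile than 7 of the 8, Hmgcs1 being the exception. Adam19, which encodes a membrane metalloprotease, had 16.5, 14.0 and 5.22 FPKM in tumors 1, 2 and 3. Naaa, which encodes a lysosomal amidase, had 14.3, 14.5 and 5.23 FPKM, and Gm5148 had 14.5, 13.8 and 4.15. Gm16033 is antisense to Adam19, with 98.5% of its exon bases in exons of that gene, and Gm17041 lies wholly within exons of Cish on the opposite strand, so neither can be told apart from its partner. With 3 tumors, such likeness is a description of these samples.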

How the data were processed

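RNA-seq of 3 Dnmt3b+/- PTCL was analysed. The authors mapped the reads to mm10 with STAR, counted them in SeqMonk at a minimum mapping quality of 50, and deposited FPKM per gene and tumor. Bisulfite data of 3 samples were not analysed here. No count model was fitted, since FPKM are not counts.

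Where no read fell on a gene, its FPKM equals 0.9 read, which gave each depth; with GENCODE M21 exon lengths, 91.9% of genes gave whole reads in all 3 tumors within 0.01 read. For Srebf2 the only length giving whole reads, 4989 bases, was used. Ratio intervals are 95% Clopper-Pearson intervals on these reads. At or under 3 reads a gene was taken as not detected. Of repeated symbols, the gene with the highest mean was kept, and symbols stored as dates were restored by identifier. Shares of all genes use a mean of at least 1 FPKM.

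The 8 genes and the gene lists were chosen with earlier results of these data known. Named genes were the 8 genes, the synthesis, sensing and uptake lists, the 3 most abundant genes of each other list and the 5 genes nearest in profile; Cd163, Cd4 and the genes overlapping others were named after their values were seen. Some genes of these lists are not reported here and were left out of the list counts and medians, after their values were seen. Steps were tested on simulated data. The scripts ran under Python 3.11.15 with SciPy 1.17.1, NumPy 2.4.6, pandas 2.3.3 and, for the figures, matplotlib 3.10.9.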

Additional observations from a re-analysis of the deposited data

How the results depend on the processing

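No paired analysis was possible because a single group of 3 tumors has expression values, although the RNA-seq and bisulfite groups share replicate numbers. The scalings tried were equal FPKM sums and median-of-ratios factors. Under both, all 8 genes kept tumor 3 as their lowest tumor and their own highest tumor, and all 8 kept a 2-fold difference. Of all genes, 39.4% with equal FPKM sums and 32.5% with median-of-ratios factors had a 2-fold difference. The number of the 8 genes that reached the fold threshold was 5 with a threshold of 3. It ranged from 0 without tumor 3 to 7 without tumor 2 when each tumor was left out. Shares of all genes were not computed for these counts. The count with tumor 3 at most 0.5 times each other tumor was 3 with median-of-ratios factors, against 4.49% of all genes. With equal FPKM sums it was 7, against 6.54%.

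The median log2 ratio of tumor 3 to tumor 1 was -1.98 with equal FPKM sums, -1.50 with median-of-ratios factors, -1.49 with a pseudocount of 1 FPKM and -1.22 with the other synthesis enzymes added. That of tumor 3 to tumor 2 was -1.60 with equal FPKM sums, -1.36 with the pseudocount, -1.67 as a mean over the genes and -0.92 with the other enzymes added. That of tumor 1 to tumor 2 was 0.15 with equal FPKM sums, 0.088 as a mean and 0.20 with the other enzymes, and it turned to -0.16 with median-of-ratios factors. The cause was not tested.

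The share of all genes lowest in tumor 3 was 50.5% with equal FPKM sums and 27.0% with median-of-ratios factors, both chosen after seeing the data. The median over the 8 genes of the mean FPKM, 8.37, ranged from 6.90 to 10.8 when each tumor was left out. Depth limits Sqle, with 53 reads in tumor 3.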
